A study of Mus musculus with 12 samples.

Results

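Genes that build and maintain the macrophage state, 9 in all, were followed in RAW264.7 cells, an established line of mouse macrophages. They are the transcription factor genes Spi1, Cebpa, Cebpb, Cebpd, Mitf, Runx1, Ets2 and Klf4, and the growth factor receptor gene Csf1r. The 9 genes were chosen by symbol from the 38215 genes of the count table, for their known roles in the lineage. Earlier results of these data were known by then, so counts of the 9 set beside all tested genes are description only. All 9 passed the filter on low counts. The cells were transfected with a nontargeting control siRNA or with SF3a1 siRNA. After 24 hours they received no LPS or 20 ng/ml LPS for 4 hours. LPS (lipopolysaccharide) is the bacterial cell wall component sensed by Toll-like receptor 4, and SF3a1 is a subunit of the SF3a complex, which helps the U2 snRNP to recognise the branch point of introns. The 2 siRNAs and the presence or absence of LPS make 4 groups of 3 libraries each, all from 1 cell line of BALB/c origin. The labels do not say how far the replicate cultures were separate, so p-values measure the spread between these libraries. Each library held between 12746019 and 41091887 reads counted on genes, and replicate 1, which was sequenced in more runs, was the deepest in every group.

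Macrophages depend on signals from CSF1R, the receptor for the cytokines CSF1 and IL-34, for their survival and differentiation. The ETS factor PU.1, encoded by Spi1, acts with RUNX1 and C/EBP factors at enhancers and promoters of myeloid genes, among them Csf1r itself. LPS drives a rapid change of programme in which some of these factors are induced together with inflammatory genes.

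Levels are given as CPM, which are counts scaled to a common library total by the TMM method. The threshold for calling a gene was an adjusted p of 0.1 in edgeR's quasi-likelihood test over the 14983 genes that passed the filter, with Benjamini-Hochberg adjustment. Standard errors were derived from that test, as the absolute log2 fold change divided by the square root of its F statistic. Sf3a1 itself, the target of the siRNA, had 191 ± 22.2 CPM with control siRNA and 28.9 ± 2.78 CPM with SF3a1 siRNA (SD, n = 3) without LPS, and 167 ± 23.9 against 34.0 ± 9.72 CPM with LPS. The markers of macrophages were abundant in every library. Of 10 such genes, 9 had a mean of at least 1 CPM, led by Lyz2 at 6689 CPM, and Mertk was lower at 0.878 CPM. Their summed level ran from 9711 to 15473 CPM over the 12 libraries. This sum includes Csf1r, itself a member of the set studied here, at a mean of 2502 CPM. The summed markers of neutrophils, B cells, T or NK cells, fibroblasts and epithelium stayed at or below 1.57 CPM in every library, and Cd8a and Ncr1 were at 0 in all of them. Markers of dendritic cells summed to at most 3.51 CPM, mostly Zbtb46, and those of erythroid cells, megakaryocytes or mast cells to at most 1.56 CPM.

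Per kilobase of annotated exon, the level order in resting control cells was headed by Csf1r with 601 ± 55.3 CPM per kb. Spi1 came next with 184 ± 19.7 CPM per kb, and Cebpb followed with 48.3 ± 3.47 CPM per kb. These genes were each separated from the next by non-overlapping libraries. Cebpa, the C/EBP factor best known from granulocyte and macrophage precursors, stood at 34.2 ± 2.33 CPM per kb. Mitf at 16.1 ± 0.438 and Ets2 at 15.5 ± 3.58 CPM per kb overlapped, as did Runx1 at 7.48 ± 1.43 and Klf4 at 6.82 ± 2.40 CPM per kb. Cebpd was the lowest at 4.04 ± 0.587 CPM per kb, and on this scale its libraries lay below those of Klf4. In CPM, not divided by exon length, the libraries of Cebpd (13.8 to 17.7) and Klf4 (15.4 to 29.1) overlapped. The exon lengths of Cebpd, Mitf, Runx1 and Ets2 are less certain, because their rebuilt exon pieces did not match the deposited ones in number. With LPS the receptor and PU.1 transcripts came closer on this scale. In control cells with LPS, Spi1 had 315 ± 21.3 and Csf1r 292 ± 24.6 CPM per kb. In SF3a1 siRNA cells with LPS they had 479 ± 49.7 and 469 ± 57.0 CPM per kb. Libraries overlapped in both groups. The overlap depends on the lengths used, 2695 nt for Spi1 and 4885 nt for Csf1r, which include annotated stretches with few reads. In CPM the libraries did not overlap, with Spi1 at 848 ± 57.3 and Csf1r at 1425 ± 120 in control cells with LPS. After SF3a1 siRNA and LPS they had 1292 ± 134 and 2291 ± 279 CPM, again apart.

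**Figure D1:**
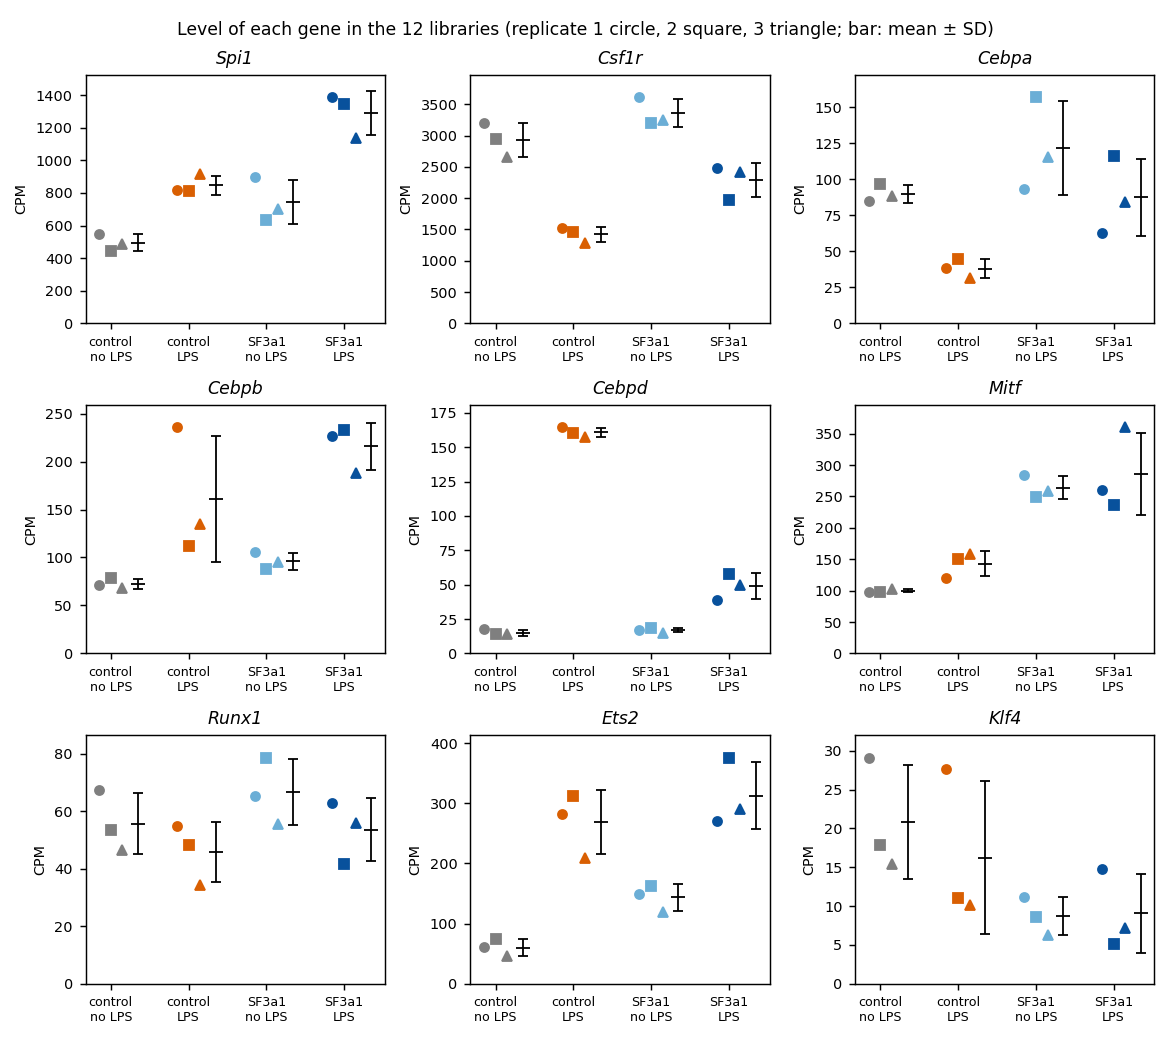
CPM of the 9 genes (one panel each, linear axes from 0) in the 12 libraries, grouped by siRNA and LPS, with symbols for replicates 1 to 3 and black bars for mean ± SD. Cebpd reached 158 to 164 CPM in control cells with LPS but 39.0 to 57.7 CPM after SF3a1 siRNA and LPS, and replicate 1 was the highest library for Klf4 in every group.

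LPS with control siRNA asks how the lineage factors respond to the bacterial stimulus. Of the 9 genes, 7 were called changed. All but Klf4 and Runx1 were among them, with 5 higher and 2 lower. Over all tested genes the share called was 32.1%, with 13.8% higher and 18.3% lower. The median log2 fold change of the 9 genes was 0.52, beside -0.02 over all tested genes. The 4 comparisons share libraries (each group enters more than one), so their values stand side by side and are not independent of each other.

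SF3a1 siRNA without LPS changed 4 of the 9 genes, with Spi1, Mitf and Ets2 higher and Klf4 lower. In this comparison 33.8% of all tested genes were called, 13.7% higher and 20.1% lower. With LPS, SF3a1 siRNA changed 5 of the 9, namely Spi1, Csf1r, Cebpa and Mitf higher and Cebpd lower, against 38.8% of all tested genes (18.4% higher and 20.4% lower). LPS in cells with SF3a1 siRNA changed 5 of the 9, with Spi1, Cebpb, Cebpd and Ets2 higher and Csf1r lower, against 10.7% of all tested genes (6.6% higher and 4.06% lower). Median log2 fold changes of the 9 genes were 0.41, 0.42 and 0.11 in these 3 comparisons, beside -0.02, -0.04 and 0.01 over all tested genes. The difference between the LPS effects with SF3a1 and with control siRNA, tested as the interaction term, was called for 1 of the 9 genes, Cebpd, against 3.47% of all tested genes. The fit behind these calls leaves out the replicate number, although libraries with the same number deviated together. With a replicate block, that is, with the replicate number as a term of the model, the interaction was called for 4 members and 1756 genes in place of 520. LPS in cells with SF3a1 siRNA was then called for 3115 genes in place of 1598. Reads outside annotated genes made up 17.8 to 19.8% of reads in control libraries and 18.2 to 27.2% after SF3a1 siRNA, and the part of this share in the SF3a1 results was not tested.

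**Figure D2:**
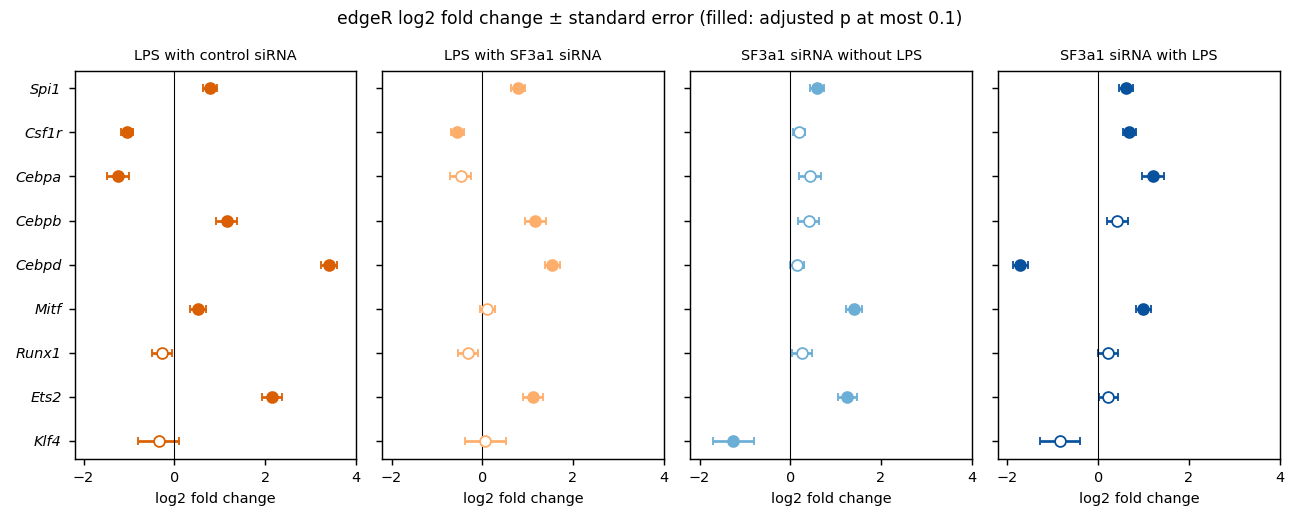
Fitted log2 fold change ± standard error (horizontal axis) of the 9 genes in 4 comparisons (panels), with filled points for an adjusted p of 0.1 or less in edgeR. Spi1 lies above 0 in all 4 panels, Csf1r and Cebpa lie below 0 in both LPS panels and above 0 in both SF3a1 panels, and Cebpd has the highest point at 3.41 and the lowest at -1.72.

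Spi1 (ENSMUSG00000002111, chr2:91082390-91115756, forward strand, mm10) encodes PU.1, the factor without which macrophages do not form. Without LPS the control libraries had 550, 445 and 488 CPM, and with LPS 815, 814 and 914 CPM. Every LPS library was above every library without it. LPS raised Spi1 by 0.78 on the log2 scale (standard error 0.155, edgeR adjusted p = 0.00231). With SF3a1 siRNA the 3 libraries had 895, 637 and 702 CPM without LPS, and 1388, 1349 and 1139 CPM with LPS. These too were apart from each other and from the matched control libraries. SF3a1 siRNA raised Spi1 by 0.59 without LPS (standard error 0.155, adjusted p = 0.0132) and by 0.61 with LPS (standard error 0.155, adjusted p = 0.0101), both in edgeR. The LPS effect with SF3a1 siRNA was 0.80 (standard error 0.155, adjusted p = 0.00638). The interaction was 0.02 with a standard error of 0.218 (edgeR adjusted p = 0.993).

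Spi1 was also the member in which exon usage moved. For the exon data each gene was cut at every annotated exon boundary, and the pieces are called bins. The bins were counted in 11 libraries, and replicate 3 of the control cells with LPS was not used here for them. Of the 97 bins of the 9 genes, 85 could be tested with diffSpliceDGE, which asks whether a bin's counts change differently from the rest of its gene. Cebpa and Cebpb have 1 bin each and could not be tested. With SF3a1 siRNA 1 of the 85 bins was called without LPS, against 0.626% of all 153624 tested bins (0.497% higher), and 1 with LPS, against 0.492% (0.381% higher). Both calls are bin 6 of Spi1. In the LPS comparisons no member bin was called, against 0.0801% of all bins with control siRNA and 0.0254% with SF3a1 siRNA. There, 3 and 2 of the 85 member bins had an unadjusted p under 0.05, beside 3025 and 1984 of the 153624 bins, and the limma-voom alternative called 0 member bins in either.

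Bin 6 is a stretch of 30 nt at chr2:91099400-91099429 that extends an internal coding exon of Spi1 (its common part is chr2:91099430-91099526) towards the 5′ side. The annotated transcript Spi1-203 uses the upstream 3′ splice site and keeps the 30 nt, whereas Spi1-201 joins the preceding exon, which ends at 91096993, directly to position 91099430. The sequences of these junctions are shown because this stretch carries the exon usage call. They come from the GENCODE vM21 transcripts (mm10), 20 nt of exon on each side, with the 30 nt of bin 6 in capitals.
Spi1-203: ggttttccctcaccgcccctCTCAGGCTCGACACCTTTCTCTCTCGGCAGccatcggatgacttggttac
Spi1-201: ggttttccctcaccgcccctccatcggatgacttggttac
The capitals end in AG, the dinucleotide at which the shorter form is spliced, and 20 of the 30 bases are C or T. The length of the stretch is a multiple of 3. A read on bin 6 can come from the longer exon or from RNA that still holds the intron, and the bin counts do not separate these.

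Counts on bin 6 were 161, 69 and 65 in the resting control libraries and 251 and 65 in the 2 control libraries with LPS. With SF3a1 siRNA they were 658, 203 and 182 without LPS and 1471, 415 and 495 with LPS. As a share of all Spi1 bin counts, bin 6 held 0.463, 0.515 and 0.400% in resting control cells and 0.570 and 0.468% in control cells with LPS. The share was 1.79, 1.27 and 1.36% with SF3a1 siRNA alone and 2.20, 1.35 and 1.47% with SF3a1 siRNA and LPS. All 6 libraries with SF3a1 siRNA lay above all 5 with control siRNA. Relative to the rest of Spi1, bin 6 rose by 1.72 on the log2 scale without LPS (diffSpliceDGE in edgeR, adjusted p = 0.000138) and by 1.68 with LPS (adjusted p = 0.00425). Set against the neighbouring bin 7, the common part of the exon, the counts of bin 6 were 4.87 ± 1.13% in resting control cells (n = 3) and 16.5 ± 4.08% with SF3a1 siRNA (n = 3), and with LPS 5.65 ± 0.733% (n = 2) and 18.5 ± 6.52% (n = 3). The call with LPS rests on 2 control libraries. Without replicate 1 of that group the log2 change was 1.84 with an adjusted p of 0.151, and without replicate 2 it was 1.56 with an adjusted p of 0.166, in edgeR.

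**Figure D3:**
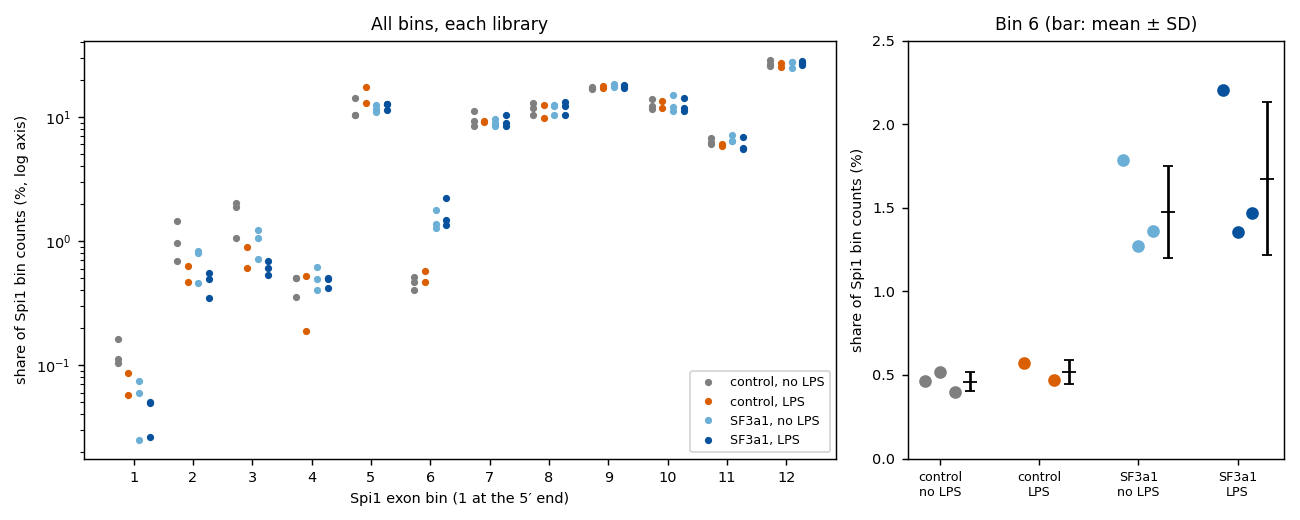
Share of Spi1 bin counts on each of the 12 exon bins (left, percent on a log axis, one point per library) and on bin 6 alone (right, percent, with mean ± SD) in 11 libraries. Bin 6 held 0.400 to 0.570% in control libraries and 1.27 to 2.20% after SF3a1 siRNA.

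The 3 bins at the 5′ end of Spi1 held few reads. Together they made up 2.81 ± 0.838% of Spi1 bin counts in resting control cells and 1.37 ± 0.297% in control cells with LPS. With SF3a1 siRNA they made up 1.75 ± 0.454% without LPS and 1.12 ± 0.194% with LPS. None of the 3 was called. For bin 3, a stretch of 497 nt, the log2 change with LPS in control cells was -1.12 (unadjusted p = 0.00231, adjusted p = 0.948 in edgeR). Under the replicate block this bin was called in control cells with LPS (-1.01, adjusted p = 0.036) and with SF3a1 siRNA alone (-0.71, adjusted p = 0.0559).

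Csf1r (ENSMUSG00000024621, chr18:61100598-61132149, forward strand) encodes the tyrosine kinase receptor of the lineage. It overlaps the gene Hmgxb3 on the opposite strand, and reads of overlapping genes are less certain because the strand setting of the counting is not given in the sources used here. Resting control libraries had 3198, 2950 and 2658 CPM, and control libraries with LPS 1523, 1460 and 1291 CPM. The groups did not overlap, and LPS left 48.5% of the resting level (log2 fold change -1.04, standard error 0.138, edgeR adjusted p = 0.000117). With SF3a1 siRNA the libraries had 3615, 3199 and 3256 CPM without LPS and 2487, 1972 and 2414 CPM with it. The fall was called here too, at -0.55 (standard error 0.137, adjusted p = 0.0278). The call was lost without replicate 1 of SF3a1 siRNA alone (-0.50, adjusted p = 0.106) and without replicate 2 of SF3a1 siRNA with LPS (-0.45, adjusted p = 0.105), in edgeR. Between the siRNAs the groups did not overlap, either with or without LPS. With LPS, Csf1r was 0.69 higher after SF3a1 siRNA (standard error 0.138, adjusted p = 0.00248). Without LPS the groups were almost touching, and the difference of 0.19 was not called (standard error 0.137, adjusted p = 0.340). The interaction was 0.49 (standard error 0.194) with an edgeR adjusted p of 0.272, and 0.49 with an adjusted p of 0.0767 under the replicate block. None of the 24 Csf1r bins was called in any comparison.

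The 3 C/EBP genes among the members responded in different ways to LPS. Cebpa (ENSMUSG00000034957, chr7:35119293-35121928, forward strand, overlapping Gm45091 on the opposite strand) had 84.8, 96.7 and 88.3 CPM in resting control cells and 38.6, 44.3 and 31.2 CPM with LPS. It fell without overlap by 1.24 on the log2 scale (standard error 0.239, edgeR adjusted p = 0.0018). With SF3a1 siRNA it had 93.2, 157 and 115 CPM without LPS and 62.3, 116 and 84.3 CPM with LPS. These groups overlapped, and the log2 fold change was -0.48 (standard error 0.235, adjusted p = 0.300, or 0.049 with the replicate block). Leaving out 1 library at a time gave -0.73 to -0.25, called in 0 of 6 edgeR fits. SF3a1 siRNA raised Cebpa in LPS-treated cells by 1.20 (standard error 0.239, adjusted p = 0.00233). Without LPS the value was 0.44 (standard error 0.235, adjusted p = 0.198). With the replicate block it was 0.40 and called (adjusted p = 0.0502), as it was in the fit of only these 2 groups (0.46, adjusted p = 0.0971). Without 1 library at a time it was called in 0 of 6 fits. It fell to 0.23 without replicate 2 of SF3a1 siRNA alone (edgeR adjusted p = 0.579). The interaction of 0.76 (standard error 0.333) had an edgeR adjusted p of 0.337, and of 0.0503 with the block.

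Cebpb (ENSMUSG00000056501, chr2:167688915-167690418, forward strand, overlapping Tmem189 on the opposite strand) encodes C/EBPβ, a factor of the inflammatory response of macrophages. Resting control libraries had 71.0, 78.5 and 68.4 CPM and control libraries with LPS 236, 112 and 135 CPM. Replicate 1 with LPS stood well above the other LPS libraries, but all 3 were above the resting ones. The rise was 1.15 on the log2 scale (standard error 0.229, edgeR adjusted p = 0.00228), and 0.77 without replicate 1 of control siRNA with LPS. In cells with SF3a1 siRNA Cebpb rose from 106, 87.8 and 95.1 CPM to 227, 232 and 188 CPM, by 1.16 (standard error 0.229, adjusted p = 0.00666). Interaction was close to 0 in the fit, at 0.02, but with a standard error of 0.320 (adjusted p = 0.996). SF3a1 siRNA gave 0.41 without LPS (standard error 0.227, adjusted p = 0.216) and 0.42 with LPS (standard error 0.226, adjusted p = 0.183), neither called. The groups did not overlap without LPS, and the edgeR fit of only these 2 groups called that difference (0.42, adjusted p = 0.0258). In LPS-treated cells the difference was 0.81 with an adjusted p of 0.00221 in edgeR without replicate 1 of control siRNA with LPS. Under the replicate block it was 0.46 (adjusted p = 0.0609). Without 1 library at a time it ran from 0.22 to 0.81, and 1 of 6 edgeR fits called it.

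Because Cebpa and Cebpb moved in opposite directions with LPS, their upstream sequences are shown, 250 bases before the RefSeq start (GRCm38.p6), Cebpa at chr7:35119043-35119292 and Cebpb at chr2:167688665-167688914, both on the forward strand. Capitals mark TGACG, the half-site bound by CREB and ATF factors, on either strand.
Cebpa: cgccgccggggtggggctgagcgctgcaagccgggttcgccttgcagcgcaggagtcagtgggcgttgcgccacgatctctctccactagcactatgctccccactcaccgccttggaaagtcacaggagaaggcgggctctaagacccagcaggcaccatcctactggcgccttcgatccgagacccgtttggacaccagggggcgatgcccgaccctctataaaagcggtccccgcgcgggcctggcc
Cebpb: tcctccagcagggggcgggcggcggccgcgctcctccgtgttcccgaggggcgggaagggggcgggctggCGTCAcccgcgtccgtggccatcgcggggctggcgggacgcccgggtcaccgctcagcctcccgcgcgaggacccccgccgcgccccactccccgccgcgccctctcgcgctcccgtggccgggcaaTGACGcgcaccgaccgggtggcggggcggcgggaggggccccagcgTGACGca
TGACG occurs 3 times in the Cebpb window and 0 times in that of Cebpa, and 17.8% of the 32851 promoter windows of this length hold it. The letters TTGCNNAA (a C/EBP motif) and GAGGAAGT (an ETS motif) were searched on both strands as well. Neither window holds them, and they occur in 9.56 and 2.44% of all windows. The windows are rich in G and C, with 66.4% for Cebpa and 81.6% for Cebpb. The shares of all windows count those with any match. Windows of Mitf, Runx1, Ets2 and Klf4 are not counted here. A match is only a run of letters, and no binding was measured.

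Cebpd (ENSMUSG00000071637, chr16:15887286-15891031, forward strand) encodes C/EBPδ, a factor known as an amplifier of sustained TLR4 signals. It overlaps Spidr on the opposite strand. Resting control libraries had 17.7, 13.9 and 13.8 CPM and control libraries with LPS 164, 160 and 158 CPM. This 10.6-fold rise was the largest change among the 9 genes (log2 fold change 3.41, standard error 0.176, edgeR adjusted p = 3.82e-08). With SF3a1 siRNA the libraries had 17.0, 18.2 and 15.3 CPM without LPS and 39.0, 57.7 and 49.7 CPM with LPS. The rise there was 2.90-fold (log2 fold change 1.54, standard error 0.166, adjusted p = 6.42e-05). All LPS libraries with SF3a1 siRNA lay above all resting libraries and below all LPS libraries with control siRNA. In LPS-treated cells SF3a1 siRNA left 30.3% of the control level (log2 fold change -1.72, standard error 0.165, adjusted p = 2.69e-05), whereas without LPS the log2 fold change was 0.15 (standard error 0.164, adjusted p = 0.564). The interaction was -1.87 (standard error 0.231, edgeR adjusted p = 0.00245). It was called in all 18 alternatives, with values between -2.06 and -1.73. Neither of the 2 Cebpd bins was called.

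Mitf (ENSMUSG00000035158, chr6:97807052-98021349, forward strand) encodes a factor of the MiT/TFE family that works with PU.1 in osteoclasts, the bone-resorbing relatives of macrophages. Its locus overlaps Gm15531 on the other strand. The resting control libraries were tightly spaced at 98.1, 98.6 and 103 CPM, and those with LPS had 120, 151 and 159 CPM. The rise of 0.52 (standard error 0.167, edgeR adjusted p = 0.0358) was without overlap, but it was no longer called without replicate 2 (0.48, adjusted p = 0.103) or replicate 3 (0.44, adjusted p = 0.118) of control siRNA with LPS. With SF3a1 siRNA Mitf had 284, 249 and 259 CPM without LPS and 260, 237 and 360 CPM with LPS. All 6 libraries exceeded all 6 with control siRNA. The SF3a1 siRNA effect was 1.40 without LPS (2.64-fold, standard error 0.169, adjusted p = 0.000125) and 0.996 with LPS (1.99-fold, standard error 0.168, adjusted p = 0.000816). LPS gave 0.11 in SF3a1 siRNA cells (standard error 0.166, adjusted p = 0.829), and the interaction was -0.41 (standard error 0.235, adjusted p = 0.544). Mitf has several alternative first exons, but its 21 bins could not be matched to coordinates, so no bin was assigned to a promoter. Of these bins 16 were tested and none was called.

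Some osteoclast marker transcripts were higher with SF3a1 siRNA, as Mitf was. In edgeR 3 of the 5 tested markers rose without LPS, Acp5 (2.60, adjusted p = 0.0402), Ctsk (2.37, adjusted p = 0.0519) and Atp6v0d2 (2.61, adjusted p = 0.0237). With LPS 3 of the 5 rose as well, Ctsk (2.37, adjusted p = 0.0459), Atp6v0d2 (3.12, adjusted p = 0.00964) and Ocstamp (1.75, adjusted p = 0.0357), whereas Acp5 (1.91, adjusted p = 0.102) was not called. Dcstamp was called in neither (0.87 and 1.03), nor was Ocstamp without LPS (0.29). Of all tested genes, SF3a1 siRNA raised 13.7% without LPS and 18.4% with LPS. The summed level of 6 markers, led by Acp5, was 196, 39.2 and 127 CPM in resting control libraries and 359, 80.0 and 217 CPM with LPS. After SF3a1 siRNA it was 1051, 225 and 575 CPM without LPS and 1444, 322 and 759 CPM with LPS. Replicate 2 was the lowest in every group, and within each replicate number both SF3a1 siRNA libraries were above both control libraries. Of the 6 markers 5 had a mean of at least 1 CPM, and Calcr, the calcitonin receptor of mature osteoclasts, was near 0 with 0 to 2 counts per library. More cells of such a type and more RNA per cell cannot be told apart in these bulk samples. The part of these markers in the Mitf result was not tested.

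Ets2 (ENSMUSG00000022895, chr16:95702075-95721051, forward strand) encodes an ETS factor that is phosphorylated downstream of CSF1R and ERK. It had 60.4, 74.0 and 46.1 CPM in resting control cells and 283, 313 and 209 CPM with LPS. LPS raised it by 2.16 on the log2 scale (4.46-fold, standard error 0.220, edgeR adjusted p = 1.23e-05). With SF3a1 siRNA alone it had 150, 163 and 119 CPM, above every resting control library, a change of 1.26 (2.39-fold, standard error 0.214, adjusted p = 0.00102). SF3a1 siRNA with LPS gave 271, 376 and 291 CPM, which overlapped the control libraries with LPS (0.22, standard error 0.211, adjusted p = 0.473). The LPS effect in cells with SF3a1 siRNA was 1.12 (standard error 0.213, adjusted p = 0.00543). The interaction of -1.04 (standard error 0.299) had an edgeR adjusted p of 0.113, just outside the threshold, and of 0.00309 with the replicate block. It was also called in edgeR without replicate 2 of resting control cells (-1.25, adjusted p = 0.0883), replicate 3 of control siRNA with LPS (-1.19, adjusted p = 0.0834) or replicate 2 of SF3a1 siRNA with LPS (-1.19, adjusted p = 0.083). None of its 15 tested bins was called.

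Klf4 (ENSMUSG00000003032, chr4:55527143-55532466, reverse strand), a zinc finger factor that can promote monocyte differentiation, was expressed at a low level. Resting control libraries had 29.1, 17.9 and 15.4 CPM and control libraries with LPS 27.6, 10.97 and 10.1 CPM. With SF3a1 siRNA it had 11.2, 8.64 and 6.25 CPM without LPS and 14.8, 5.14 and 7.22 CPM with LPS. Replicate 1 was the highest library in each group. The resting groups did not overlap, and SF3a1 siRNA lowered Klf4 by 1.25 without LPS (standard error 0.455, edgeR adjusted p = 0.0597). This call was lost without replicate 1 of resting control cells, where the change was -0.83 (adjusted p = 0.241), and without replicate 2 of that group (-1.28, adjusted p = 0.107). It was also lost without replicate 2 (-1.23, adjusted p = 0.141) or replicate 3 (-1.07, adjusted p = 0.185) of SF3a1 siRNA alone. In LPS-treated cells the SF3a1 siRNA value was -0.84 (standard error 0.451, adjusted p = 0.183), and -0.81 with an adjusted p of 0.0068 under the replicate block. It was also called without a filter on low counts (-0.84, edgeR adjusted p = 0.0191). It moved to -0.20 without replicate 1 of control siRNA with LPS (adjusted p = 0.755) and to -1.40, which was called, without replicate 1 of SF3a1 siRNA with LPS (adjusted p = 0.0434). LPS gave -0.35 with control siRNA (standard error 0.444, adjusted p = 0.644) and 0.06 with SF3a1 siRNA (standard error 0.454, adjusted p = 0.977). The value with control siRNA was -0.66 and called without replicate 1 in every group (edgeR adjusted p = 0.0464), an alternative chosen after seeing the data. It was 0.0046 without replicate 1 of resting control cells (adjusted p = 0.997) and -0.99 without replicate 1 of control siRNA with LPS (adjusted p = 0.118).

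Runx1 (ENSMUSG00000022952, chr16:92601466-92826149, reverse strand) encodes a factor needed for the first blood stem cells and acts with PU.1 in myeloid cells. It overlaps Gm26626 on the opposite strand. Resting control libraries had 67.3, 53.5 and 46.5 CPM, and control libraries with LPS 54.8, 48.2 and 34.5 CPM. With SF3a1 siRNA the levels were 65.5, 78.8 and 55.7 CPM without LPS and 63.1, 41.7 and 56.0 CPM with LPS. Libraries overlapped in all 4 comparisons. The log2 values were -0.28 and -0.31 for LPS with control and with SF3a1 siRNA (standard error 0.219 in both), and 0.26 and 0.22 for SF3a1 siRNA without and with LPS (standard errors 0.218 and 0.219), with edgeR adjusted p between 0.409 and 0.517. None was called in any of the alternatives tried, and none of the 9 Runx1 bins, which have no matched coordinates, was called either.

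Around these members, 10 lists of related genes were counted, 129 genes of which 116 were tested. The lists too were chosen with earlier results of these data known, so their shares beside all tested genes are description only. With LPS in control cells 40 of them rose and 26 fell, and 50 were not called. The median log2 fold change was 0.33. SF3a1 siRNA without LPS raised 40 and lowered 10, with a median of 0.35, and SF3a1 siRNA with LPS raised 36 and lowered 22, with a median of 0.24. LPS in cells with SF3a1 siRNA raised 18 and lowered 7, with a median of 0.15. The shares called were 56.9, 43.1, 50 and 21.6%, beside 32.1, 33.8, 38.8 and 10.7% of all tested genes. The interaction was called for 19 of the 116, 6 higher and 13 lower, or 16.4% beside 3.47% of all tested genes. Values in the following sentences are log2 fold changes, each from edgeR with an adjusted p of 0.1 or less.

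Around the receptor, Csf1, the gene of its ligand CSF1, went from 0.801 ± 0.362 to 53.9 ± 17.8 CPM with LPS in control cells (6.04, adjusted p = 7.01e-07), the opposite direction to Csf1r. After SF3a1 siRNA it went from 1.91 ± 0.161 to 23.9 ± 10.8 CPM (3.63, adjusted p = 7.24e-05), and the difference between these LPS effects was called (-2.41, adjusted p = 0.0441). Il34, the other ligand gene, stayed under a mean of 1 CPM, but it rose with SF3a1 siRNA from 0.0818 to 0.591 CPM without LPS (2.80, adjusted p = 0.00591) and from 0.107 to 0.861 CPM with LPS (2.97, adjusted p = 0.00345). At this level it falls outside the naming rule and was named after its values were seen. Of the 7 tested genes for ligands and cytokine receptors, 3 rose and 1 fell with LPS in control cells. Csf2rb, the shared chain of the GM-CSF, IL-3 and IL-5 receptors, rose by 1.19 (0.75 and not called without replicate 1 of control siRNA with LPS), and Tnfrsf11a, which encodes the osteoclast receptor RANK, fell by 0.89. With SF3a1 siRNA 4 of the 7 rose and 1 fell without LPS, among them Tnfrsf11a (1.02) and Csf2rb2 (1.31) higher and Csf3r, the G-CSF receptor, lower (-1.28). In LPS-treated cells SF3a1 siRNA raised 2 and lowered 3, with Tnfrsf11a at 1.44, Csf3r at -2.04 and Csf1 at -1.17.

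Among 19 signalling partners of CSF1R, LPS in control cells raised 7 and lowered 2. The SRC family kinase gene Fgr (3.08) rose, and the lipid phosphatase gene Inpp5d (-0.95) and the PI3K regulatory subunit Pik3r1 (-0.83) fell. SF3a1 siRNA without LPS raised 5, including Src (3.60) and Syk (0.72), and lowered 1, the phosphatase gene Ptpn6 (-0.88). In LPS-treated cells SF3a1 siRNA raised 6, including the adaptors Grb2 (0.56) and Dok1 (0.98), and lowered 5, including Stat3 (-1.63). LPS in cells with SF3a1 siRNA raised 5 and lowered 1, with Fgr at 1.89 and Inpp5d at -1.09. The interaction was called for 4 of the 19, all lower, among them Stat3 (-1.504) and Fgr (-1.18).

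The relatives of the transcription factors moved in both directions. In the ETS family LPS in control cells raised 3 of 11 tested genes, with Etv6 (1.11) and Etv3 (0.92), and lowered 4, with Elk3 (-1.53) and Fli1 (-1.11). SF3a1 siRNA without LPS raised 3 of the 11, with Etv6 (0.78) and Etv3 (0.93), and in LPS-treated cells it raised 5, with Elk3 (1.85) and the repressor gene Erf (1.78), and lowered 0 in either (8 and 6 genes not called). The interaction was called for Elk3 (1.06). In the C/EBP family, Ddit3, a gene of the stress response, had 7.04, 6.21 and 6.17 CPM in resting control cells and 38.8, 7.87 and 10.3 CPM with LPS. Its call with LPS (1.57) rested on replicate 1, and without that library the value was 0.49 (edgeR adjusted p = 0.147). With SF3a1 siRNA alone Ddit3 (1.37) and Cebpe (1.16) rose. Cebpg fell with SF3a1 siRNA without LPS (-1.13) and with LPS (-0.99). Of the relatives of Mitf, Tfeb fell with LPS in control cells (-2.17) while Tfec rose (1.69), and SF3a1 siRNA raised Tfeb in LPS-treated cells (1.77). For Tfeb the LPS effects differed between the siRNAs (interaction 1.95, adjusted p = 0.00521). Tfec rose with LPS after SF3a1 siRNA too (1.36, and 0.79 and not called without replicate 1 of SF3a1 siRNA with LPS).

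Of 5 tested genes of the RUNX family and its cofactors, LPS in control cells lowered 4, among them Cbfa2t2 (-0.73) and Runx3 (-1.02). Without LPS, SF3a1 siRNA raised 2 of the 5 and lowered 1, and with LPS it raised 3 and lowered 0 (2 not called). It raised Cbfa2t2 by 0.57 without and 1.15 with LPS, and Runx2, a low transcript with group means of 0.662 to 2.96 CPM, by 1.42 and 2.08. The cofactor gene Cbfa2t3, with group means of 0.0275 to 0.729 CPM and named after its values were seen, fell without LPS (-1.62, adjusted p = 0.0239) and rose with LPS (2.25, adjusted p = 0.0405). In the KLF family LPS in control cells raised 1 of 9, Klf7 (2.39), and lowered 3, with Klf11 (-2.91) and Klf10 (-0.73). Klf11 fell with LPS after SF3a1 siRNA too (-2.18). SF3a1 siRNA raised Klf7 without LPS (0.72) and lowered it with LPS (-1.04), and this interaction was called (-1.77, adjusted p = 0.0134). Klf9 (1.53) and Klf10 (0.50) rose with SF3a1 siRNA in LPS-treated cells.

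Among 27 other myeloid transcription factors LPS in control cells raised 12 and lowered 6. Myc rose by 3.97, and Maf went from 0.0374 ± 0.0464 to 18.8 ± 11.6 CPM. Id2 (-2.29) and Rxra (-1.66), a partner of nuclear receptors, fell. SF3a1 siRNA without LPS raised 9, with Fos (1.84) and Myc (2.71), and lowered 5, with Id2 (-1.24) and Irf8 (-1.39), a factor that acts with PU.1. In LPS-treated cells it raised 7 and lowered 7, with Fos (1.59) and Bhlhe40 (1.30) higher and Atf3 (-2.43) lower, and Maf at 0.656 ± 0.222 CPM. LPS after SF3a1 siRNA raised 5, with Myc (1.67) and Irf4 (1.98), and lowered 3, with Rxra (-0.86). The interaction was called for 6 of the 27, with Id2 (2.03) and Tal1 (0.83) higher and Myc (-2.30) and Egr1 (-2.47) lower.

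Macrophage surface and lysosomal genes rose with LPS in control cells in 11 of 20 cases and fell in 3. Fcgr1, the high-affinity IgG receptor, rose by 2.83 and the scavenger receptor Msr1 by 1.41, while Sirpa (-1.43) and the chemokine receptor Cx3cr1 (-0.89) fell. SF3a1 siRNA without LPS raised 6, with Fcgr3 (1.30) and Lyz1 (0.92), and lowered 1, Cx3cr1 (-1.39). In LPS-treated cells it raised 3, with Fcgr3 (0.99) and Lyz1 (0.65, and 0.43 and not called without replicate 2 of SF3a1 siRNA with LPS), and lowered 5, with Fcgr1 (-3.20) and Mpeg1 (-1.29). LPS after SF3a1 siRNA raised 3 and lowered 1 of the 20, with Cd14 (1.38) and Msr1 (0.66) higher and Fcgr3 (-1.05) lower. The interaction was called for 3 genes, Fcgr1 (-2.83), Mpeg1 (-1.13) and Msr1 (-0.75, named after its value was seen), all lower. Fcgr3, Lyz1 and their close paralogs share sequence, which makes counts of uniquely mapping reads less certain.

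Osteoclast-lineage genes rose after SF3a1 siRNA in 8 of 11 tested cases without LPS and in 7 of 11 with LPS, and 0 fell in either (3 and 4 were not called). Their median log2 fold changes were 1.77 and 1.75, beside -0.02 and -0.04 over all tested genes. The shares of all tested genes called higher were 13.7% without LPS and 18.4% with LPS. This list includes the 6 osteoclast markers given with Mitf, so the 2 sets of counts are not separate. Of the 8 that rose without LPS, Mmp9 (0.280 to 2.76 CPM) and Itgb3 (0.0651 to 0.643 CPM, named after its values were seen) had low levels. Nfatc1, the leading transcription factor of osteoclast formation, went from 768 ± 105 to 1994 ± 183 CPM without LPS (1.38, adjusted p = 0.000133) and from 577 ± 86.9 to 1794 ± 278 CPM with LPS (1.64, adjusted p = 4.11e-05). Gpnmb, a glycoprotein gene known as a target of MITF, rose by 1.77 and 2.03. With LPS in control cells 1 of the 11 rose, the protease gene Mmp9 (7.90), and 2 fell, Ostm1 (-0.67) and Nfatc1 (-0.41). LPS after SF3a1 siRNA raised Mmp9 (4.43) and Ocstamp (2.66) and lowered Ostm1 (-0.41), and the interaction was called for Mmp9 (-3.48).

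Each library was also left out in turn for the genes of these lists, an alternative added after seeing the data. Of the 109 changes that the naming rule picked, 21 were no longer called in at least 1 edgeR fit without 1 library, and 0 changed sign. With LPS in control cells these were Csf2rb, Ddit3, Cx3cr1 (-1.02 to -0.69, lost in 3 of 6 fits) and Nfatc1 (-0.54 to -0.34, lost in 4 of 6). With SF3a1 siRNA without LPS, Csf3r lost its call without replicate 1 of resting control cells (-0.88) or replicate 2 of SF3a1 siRNA alone (-1.14), and so did Ptpn6 (-0.61 and -0.74). Klf7 lost it without replicate 2 (0.61), Syk without replicate 3 (0.66) and Cebpe without replicate 1 (0.90) of SF3a1 siRNA alone. With SF3a1 siRNA in LPS-treated cells Lyz1 was the only one. For LPS after SF3a1 siRNA the call was lost in 3 of 6 fits for Tfec (0.79 to 1.64), 4 for Etv6 (0.46 to 0.73) and Rxra (-1.02 to -0.77), all 6 for Ostm1 (-0.43 to -0.38), and for Fcgr3 without replicate 2 of SF3a1 siRNA alone (-0.98). For the interaction it was lost in 11 of 12 fits for Elk3 (0.88 to 1.21), 10 for Mpeg1 (-1.33 to -0.93), 9 for Tal1 (0.73 to 0.92), 8 for Egr1 (-2.98 to -2.22), 6 for Mmp9 (-4.20 to -2.76) and 1 for Csf1, without replicate 3 of SF3a1 siRNA alone (-2.38).

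**Figure D4:**
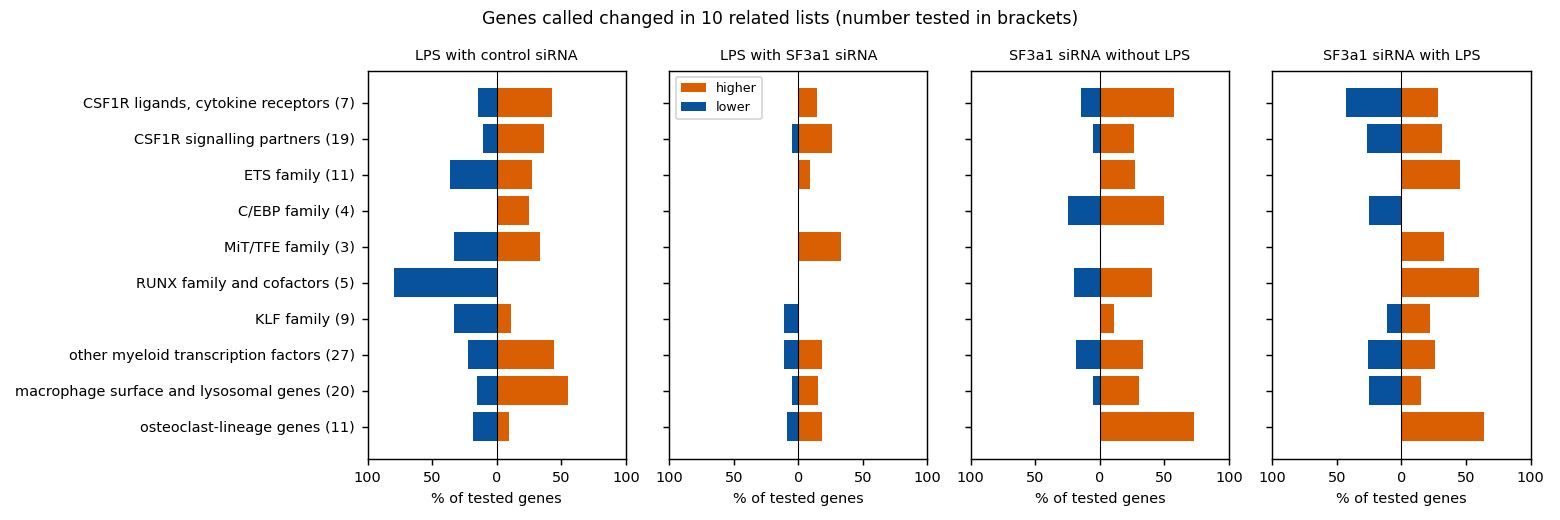
Share of tested genes called higher (right of 0) or lower (left of 0) in 10 related gene lists, in percent, for 4 comparisons (panels). Osteoclast-lineage genes stand at 8 of 11 and 7 of 11 higher with SF3a1 siRNA and 0 lower, and the RUNX family and cofactors at 4 of 5 lower with LPS in control cells.

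Genes with the most similar profiles were found for 5 members among the 9304 tested genes averaging 10 CPM or more, by the root mean square difference of log2 CPM after centring each gene on its mean over the 12 libraries. Csf1r had the closest neighbours, Fgd3 (0.110), Cacna1a (0.122) and Brd3 (0.129), beside a spread of 0.485 for Csf1r itself. Fgd3, for example, averaged 225 CPM in resting control cells, 110 with LPS, 244 with SF3a1 siRNA and 164 with both. Nearest to Spi1 were Manbal (0.147), Slc39a1 (0.173) and Gsdmd (0.176), with a spread of 0.515 for Spi1. Nearest to Mitf were Tns3 (0.185), Lrp11 (0.200) and Gna13 (0.206), with a spread of 0.643. Ets2 and Klf4 had more distant neighbours, Plk3 (0.261), Glrx (0.266) and Rnf19b (0.271) for Ets2 with a spread of 0.967, and B3gat3 (0.256), Atp8b2 (0.266) and Rbm14 (0.268) for Klf4 with a spread of 0.751. These distances describe the 12 libraries and were not tested.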

How the data were processed

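Polyadenylated RNA of 12 RAW264.7 libraries was sequenced on the Ion Proton. Per the labels, the authors mapped reads to mm10 with GSNAP, kept uniquely mapping reads and made the deposited counts per gene with HTSeq and per exon bin with DEXSeq's counting script, without normalization. Reads outside genes or ambiguous between genes were left out. Counts were fitted with edgeR 4.0.16 in R 4.3.3 (filterByExpr, TMM, quasi-likelihood, all 12 libraries, no block), with DESeq2 1.42.0 and limma 3.58.1 as alternatives. Bins of 31502 of 37223 genes were given GENCODE vM21 coordinates where the rebuilt bins matched in number. The steps were tested on simulated data. Samples with the same replicate number deviated together (r over 0.1 in all 18 pairs, 0.14 to 0.60), as did 10 of the 36 pairs with different numbers (up to 0.35), all between replicates 2 and 3, so the numbers were taken to pair the samples, from the data and not from the labels. The main fits leave this pairing out, and the fits with the replicate block include it. The members and lists were chosen with earlier results of these data known. Named were all 9 members, up to 2 called genes with the smallest adjusted p per list and direction (mean of at least 1 CPM), the 3 nearest profiles, and called bins. Some genes that this rule names are counted in their lists but are not reported here by name.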

Additional observations from a re-analysis of the deposited data

Results flagged for a closer look

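Cebpd was singled out because its LPS effect differed between the siRNAs. The interaction, a log2 difference of -1.87 (standard error 0.231, edgeR adjusted p = 0.00245), was lower in SF3a1 siRNA cells, where all 3 LPS libraries (39.0 to 57.7 CPM) lay below all 3 LPS libraries with control siRNA (158 to 164 CPM).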

How the results depend on the processing

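Of the 22 called member changes, 283 of 291 alternative values were called in the same direction and 8 fell outside the threshold, all of them fits without 1 library (Klf4, Mitf and Csf1r, given above). Of the 23 changes that were not called, 32 of 339 alternative values had the other sign, none of them called, and 21 passed the threshold in the same direction. Apart from fits without 1 library, those with the other sign were, for the interaction, Spi1 with RLE scaling (-0.0335) and DESeq2 (-0.0348) and Cebpb with RLE scaling (-0.0352) and DESeq2 (-0.0364). For LPS with SF3a1 siRNA, Klf4 gave -0.0021 with limma-voom, -0.0143 with the replicate block, and -0.27 without replicate 1 in every group, an alternative chosen after seeing the data. Without 1 library at a time, the ranges that crossed 0 were -0.99 to 0.0046 (Klf4, LPS with control siRNA), -0.0883 to 0.23 (Mitf) and -0.50 to 0.34 (Klf4, both LPS with SF3a1 siRNA), -0.10 to 0.35 (Spi1 bin 6, LPS with SF3a1 siRNA), and for the interaction -0.13 to 0.17 (Spi1), -0.19 to 0.40 (Cebpb), -0.25 to 0.12 (Runx1) and -0.15 to 1.05 (Klf4). Members called ranged from 1 to 2 for the interaction without 1 library, with 2 (Cebpd and Ets2) without a filter on low counts and with DESeq2, and 4 with the replicate block. All genes called for the interaction numbered 930 without a filter, 921 with DESeq2, 1756 with the block and 273 to 711 without 1 library. For LPS with SF3a1 siRNA they numbered 3115 with the block and 1050 to 1509 without 1 library. Without replicate 1 in every group, 8, 5, 7, 5 and 1 members and 5135, 6135, 6700, 2238 and 1012 of all genes were called in the 5 comparisons, in the order LPS with control siRNA, SF3a1 siRNA without and with LPS, LPS with SF3a1 siRNA, and interaction.

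All exon bins called were 123, 961, 756 and 39 in the 4 comparisons (LPS with control siRNA, SF3a1 siRNA without and with LPS, LPS with SF3a1 siRNA), and 285, 2113, 1793 and 105 with the replicate block, under which 1 member bin was called for LPS with control siRNA and 2 for SF3a1 siRNA without LPS. Limma-voom called 21 for LPS with SF3a1 siRNA. Without 1 library the counts were 49 to 113, 527 to 740, 101 to 887 and 26 to 37, and the member bins called for SF3a1 siRNA with LPS were 0 to 1. Only 1 control library with LPS remained in the fits that lost this call, and its spread was taken from the other groups. Apart from the calls given beside the results, the replicate block changed no call on a member or member bin. The cause of these differences was not tested. Klf4, with 5.14 to 29.1 CPM, had standard errors of 0.444 to 0.455 in the 4 comparisons of 2 groups, and Cebpd, with 13.8 to 18.2 CPM without LPS, of 0.164 to 0.176; the effect of depth on them was not tested. Intervals cover the spread between libraries of 1 cell line only.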
